A study of Mus musculus with 31 samples.

Results

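Granulocyte-macrophage progenitors (GMP, 4 arrays) were compared with common myeloid progenitors (CMP, 3 arrays), 7 of the 31 arrays of a mouse bone marrow series that spans stem cells to granulocytes. Both groups are chosen by the population each label names. All samples came from wild-type C57BL/6 bone marrow, and no treatment or age is given in the labels. CMP were sorted as lineage-negative, cKit-positive, CD34-positive and FcγR-negative cells, and GMP by the same gate with FcγR positive, and the definitions of these 2 populations name no Sca1 gate. Each sample was a pool of double-sorted cells whose RNA was amplified before hybridisation to an Affymetrix gene array. The labels call the samples biological replicates without saying whether animals were pooled. They also state that GMP samples served as controls in a related study.

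In the classical scheme of blood formation, CMP lie above a branch point. One branch leads through GMP to granulocytes and monocytes, and the other through megakaryocyte-erythroid progenitors to platelets and red cells. Factors of the C/EBP family and PU.1 direct the first branch, and factors such as GATA1, FOG1 and KLF1 the second, while the granule proteins of neutrophils are made in waves as cells mature. CMP by this gate are a mixed population, and in sorted pools a change in the share of cells that hold a transcript and a change in its amount per cell cannot be told apart.

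Some granule, phagocyte and innate receptor genes, among them Cybb, Hp and Clec5a, had higher transcript levels in GMP than in CMP. Some megakaryocyte-erythroid regulators, platelet genes and stem cell genes, among them Zfpm1, Pf4 and Angpt1, had lower levels, and most members of these lists did not pass both fits described next. Levels are log2 values after quantile normalization, on which a difference of 1 is a 2-fold change. They compare 1 gene between samples and not one gene with another, and the table holds no detection calls. The arrays fell into 5 sets, chains of arrays linked by identical deposited values. GMP 1 to 3 lay in a set with the granulocyte arrays, GMP 4 lay in another, and the 3 CMP arrays lay in a set that holds no GMP array, so the set and the population cannot be fully told apart. Of 19938 genes, 2323 (11.7%) differed at an adjusted p under 0.05 between the population means, 1084 higher in GMP (5.44%) and 1239 lower (6.21%). The deposited values, with no further normalization, raised the median difference of all genes from 0.01 to 0.25 and gave 1267 higher and 266 lower.

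With the set of arrays as a block, GMP and CMP are linked only through the MPP4 arrays, lymphoid-primed multipotent progenitors that occur in the set of GMP 4 and in the set of CMP. The block estimate therefore rests on GMP 4 alone, and GMP 1 to 3 enter only through the error. The set that joins GMP 4 to MPP4 4 and 5 is held by only 0 to 4 identical values per pair of arrays. Pairs shared 122 to 217 in the CMP set, 59 to 251 in the set of GMP 1 to 3 and at most 1 between sets. The place of GMP 4 in its set is therefore less sure. GMP 4 also read lower than every CMP array for the Y-linked transcript Eif2s3y (4.51 against 7.71 to 9.06). This fit called 264 genes (1.32%), 126 higher in GMP (0.632%) and 138 lower (0.692%), and 208 of them (1.04%) were called the same way without the block, 105 higher in GMP (0.527%) and 103 lower (0.517%). "Rose" and "fell" are kept for these 208 genes. All 105 that rose, and 102 of the 103 that fell, had no overlap between the 4 GMP and 3 CMP arrays (31.2% of all genes had none), which follows from choosing them on these arrays and is no support. The change exceeded 2 on the log2 scale for 29 genes that rose and 20 that fell. After leaving out any 1 GMP, CMP or MPP4 array except GMP 4, 112 of the 208 kept both calls in every case. Without GMP 4 the block has no estimate, and these 112 kept the call between population means. Estimating a weight for each array from the population means left 3 genes called in both fits (Sgms2, Slc14a1 and Dntt), with a weight of 0.296 for GMP 4, while weights estimated with the set in the model gave 329.

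**Figure D1:**
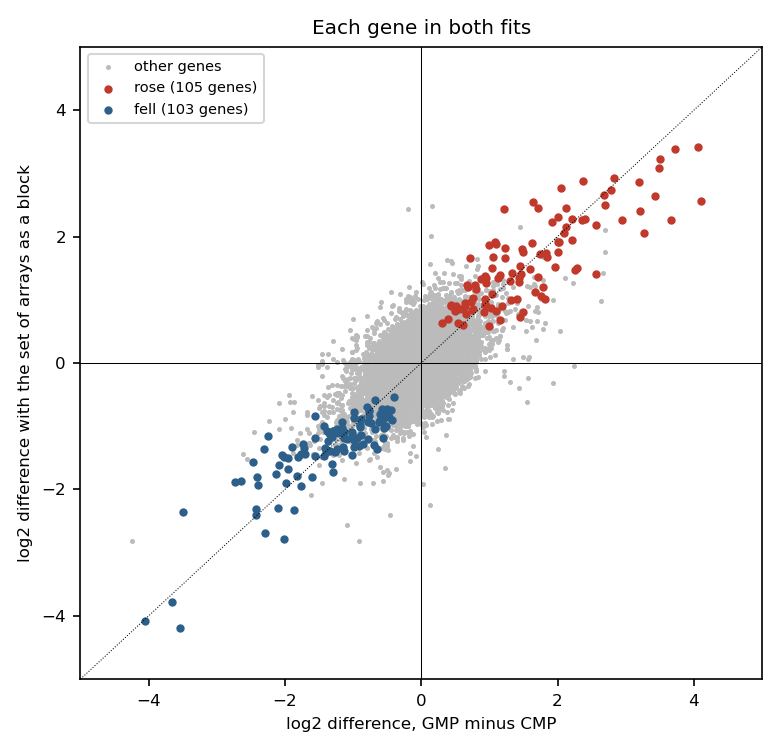
Each point is 1 of 19938 genes. The x axis gives the log2 difference GMP minus CMP between population means and the y axis the same difference with the set of arrays as a block; the dotted line marks equal values. The 105 genes that rose lie in the upper right and the 103 that fell in the lower left, while 63.4% of all genes have the same sign in both fits.

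The gate antigens followed the sort and are no finding. Fcgr3, which encodes one of the FcγR proteins stained, read 10.06, 10.15, 10.01 and 10.14 in GMP 1 to 4 and 7.69, 7.05 and 7.47 in CMP 1 to 3. Fcgr2b read 8.68 to 8.76 in GMP and 7.59 to 7.90 in CMP, although its set-block call was lost in 6 of 11 leave-outs (adjusted p 0.0507 to 0.145, without CMP 1 or 2 or MPP4 1, 2, 3 or 4) and its call between population means with GMP 4 alone (0.91, adjusted p = 0.0697). Kit and Cd34, whose proteins both gates require, were lower in GMP by the population means (log2 differences of -0.52 and -0.93) and were not called with the block (adjusted p = 0.668 and 0.0843). Correlations between arrays over all probes, with or without a gene, were 0.986 to 0.991 among GMP 1 to 3. They were 0.967 to 0.973 between GMP 4 and these, 0.975 to 0.98 among CMP, and 0.955 to 0.971 between the populations.

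The largest rises were of Ly6a2, S100a8 and Cybb. Cybb, the catalytic subunit of the phagocyte NADPH oxidase, read 10.02, 10.17, 10.19 and 9.82 in GMP 1 to 4 and 6.49, 6.34 and 6.17 in CMP 1 to 3. Every GMP array stood more than 3 log2 units above every CMP array. The difference was 3.72 ± 0.17 (SE, adjusted p = 5.72e-15) and 3.38 ± 0.31 with the set block (adjusted p = 8.45e-07). S100a8, a calcium-binding subunit of calprotectin, read 10.46, 11.92, 11.53 and 9.39 in GMP and 6.60, 6.56 and 7.13 in CMP. Its 4 GMP values lay far apart but above all CMP values, with a difference of 4.06 ± 0.51 (adjusted p = 1.83e-06) and 3.42 ± 0.82 with the block (adjusted p = 0.0369). That second call was lost without CMP 1 or 2 or MPP4 1, 3 or 5 (adjusted p 0.065 to 0.0877), and GMP 4 alone gave a difference of 2.63.

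Membrane receptors made up much of the rest of the list. Ly6a2, a gene of the Ly6 family whose close relatives may share probes with it, read 10.73, 10.58, 10.92 and 8.81 in GMP against 5.60, 7.01 and 5.88 in CMP. GMP 4 was the lowest GMP array, and the difference of 4.10 ± 0.33 came to 2.56 ± 0.43 with the block (adjusted p = 0.0021) and to 2.65 with GMP 4 alone. Gpr141, an orphan G protein-coupled receptor, read 8.42, 8.32, 8.59 and 7.63 in GMP against 4.82, 4.45 and 4.44 in CMP, a difference of 3.67 (2.26 with the block, adjusted p = 1.01e-05). Clec4a2, an inhibitory C-type lectin receptor, ranged from 7.01 in GMP 4 to 9.21 in GMP 2, against 4.99 to 5.32 in CMP. Its difference of 3.27 came to 2.05 with the block (adjusted p = 0.000121) and to 1.84 with GMP 4 alone, and probes may not separate it from its close Clec4a relatives. Clec5a, an activating C-type lectin receptor that pairs with DAP adaptor proteins, read 8.13 to 9.11 in GMP against 5.05 to 6.14 in CMP (3.21, and 2.41 with the block). Trem3, a receptor of the TREM family in mouse, read 10.20 to 10.81 against 6.80 to 7.74 (3.20, and 2.86 with the block).

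The remaining large rises were of enzymes and of Ms4a3 and Prg2. Sgms2, a sphingomyelin synthase, read 9.69, 9.86, 10.09 and 9.16 in GMP and 6.48, 6.19 and 6.14 in CMP. Its groups lay well apart, with a difference of 3.43 ± 0.15 (adjusted p = 4.01e-15) and 2.65 ± 0.21 with the block (adjusted p = 6.57e-08). Mgam, the maltase-glucoamylase that splits starch sugars, read 8.84 to 9.72 in GMP against 6.30 to 6.51 in CMP (2.94, and 2.26 with the block). Mgst2, a microsomal glutathione S-transferase that can also form leukotriene C, read 10.78 to 11.13 against 7.95 to 8.37 (2.83, and 2.93 with the block). Ms4a3 and Prg2 are described with their gene lists.

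**Figure D2:**
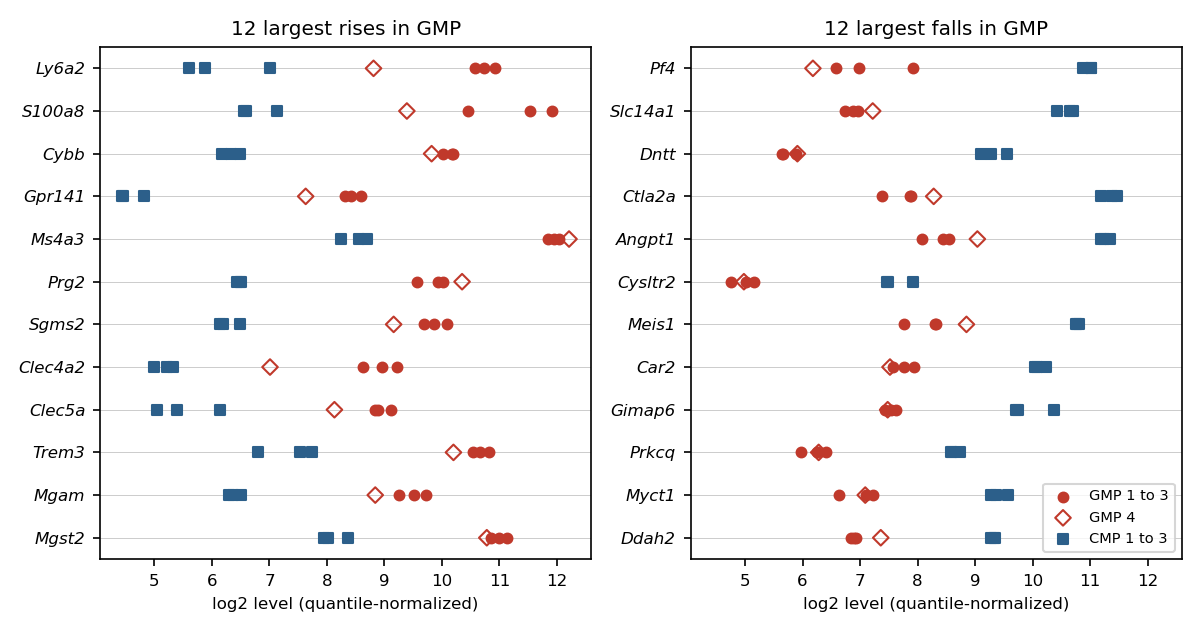
Log2 level (x axis) of the 12 largest rises (left) and 12 largest falls (right) among genes called in both fits, 1 point per array. Filled circles are GMP 1 to 3, open diamonds GMP 4 and squares CMP 1 to 3. No GMP array overlaps a CMP array for any of these genes, because they were chosen for that. GMP 4 lies nearest to CMP for most of the rises.

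The largest falls joined genes of several lineages. Pf4, the platelet factor chemokine of megakaryocyte granules, read 6.98, 7.92, 6.58 and 6.18 in GMP 1 to 4 and 10.87, 11.01 and 11.02 in CMP 1 to 3. The CMP arrays lay close together while the GMP arrays spread over more than 1 unit, and the difference was -4.05 ± 0.50 (adjusted p = 1.36e-06) and -4.08 ± 0.86 with the block (adjusted p = 0.014). Slc14a1, the urea transporter of red cells and of the kidney, read 6.87, 6.97, 6.73 and 7.22 in GMP and 10.42, 10.71 and 10.65 in CMP. Its difference of -3.65 ± 0.21 (adjusted p = 8.89e-13) was -3.78 ± 0.28 with the block (adjusted p = 2.87e-08), so both fits gave nearly the same value. Dntt, the terminal transferase that adds bases at antigen receptor joints, read 5.66, 5.64, 5.88 and 5.91 in GMP and 9.28, 9.10 and 9.56 in CMP. The difference was -3.54 ± 0.24 (adjusted p = 2.99e-11) and -4.19 ± 0.29 with the block (adjusted p = 1.19e-08).

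Ctla2a, an inhibitor of cathepsin-like proteases with a near-identical neighbour (Ctla2b) from which probes may not separate it, read 7.38 to 8.28 in GMP against 11.19 to 11.47 in CMP (-3.50, and -2.36 with the block). Angpt1, the angiopoietin ligand of the Tek receptor, read 8.07 to 9.04 against 11.19 to 11.35 (-2.73, and -1.88 with the block). Cysltr2, a receptor for cysteinyl leukotrienes, read 4.75 to 5.16 against 7.47 to 7.92 (-2.65, and -1.87 with the block). For each of these genes the GMP arrays all lay below the CMP arrays, which the choice of the largest falls required. Gimap6, a GTPase of lymphocyte survival pathways, Prkcq, a protein kinase C of T cell signalling, Myct1, and Ddah2, a regulator of methylated arginine, fell by 2.42, 2.41, 2.39 and 2.31. Ddah2 had the smallest difference of these 4 with the block (-1.36), and Prkcq lost that call without MPP4 4 (adjusted p = 0.0545).

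Promoters of the genes that rose and fell were searched for 3 motifs, because the regulators described further on bind such sites. The 250 bases before each annotated start in RefSeq (GRCm38.p6) were read for 168 of the 208 genes. Those of Cybb and S100a8, large rises, and of Pf4, the largest fall, are shown 5′ to 3′ on the gene's strand. Cybb lies on the minus strand (chrX:9469325-9469574), S100a8 on the plus strand (chr3:90668821-90669070) and Pf4 on the plus strand (chr5:90772185-90772434). Capitals mark matches on either strand to GAGGAAGT (PU.1), TTGCNNAA (C/EBP factors) or AGATAA, the site of erythroid regulators of the GATA family.
Cybb: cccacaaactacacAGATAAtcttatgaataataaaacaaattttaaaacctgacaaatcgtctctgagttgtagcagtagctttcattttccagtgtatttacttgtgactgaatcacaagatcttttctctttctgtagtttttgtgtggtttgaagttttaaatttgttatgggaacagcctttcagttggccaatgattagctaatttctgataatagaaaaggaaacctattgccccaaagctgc
S100a8: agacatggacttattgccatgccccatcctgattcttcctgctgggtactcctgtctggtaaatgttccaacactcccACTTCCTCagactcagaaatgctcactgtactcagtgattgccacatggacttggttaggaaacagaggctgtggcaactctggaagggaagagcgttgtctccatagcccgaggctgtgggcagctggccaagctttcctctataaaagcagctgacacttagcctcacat
Pf4: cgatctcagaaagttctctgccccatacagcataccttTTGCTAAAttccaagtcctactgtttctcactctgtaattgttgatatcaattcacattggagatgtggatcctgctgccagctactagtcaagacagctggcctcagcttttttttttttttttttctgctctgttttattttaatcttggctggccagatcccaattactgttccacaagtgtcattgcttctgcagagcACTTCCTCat
The Cybb window held a GATA match that begins at -236 from the start. The S100a8 window held a PU.1 match that begins at -172. The Pf4 window held a C/EBP match that begins at -212 and a PU.1 match at -10. Over 105 windows of 83 genes that rose, 4.76% held the PU.1 letters, 11.43% the C/EBP letters and 9.52% the GATA letters, against 2.44%, 9.56% and 9.99% of all 32851 promoter windows. Over 117 windows of 85 genes that fell, the shares were 1.71%, 5.98% and 5.13%. No motif overlapped another in the windows shown, and a match is no evidence of binding.

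More granule genes were higher in GMP by the population means than passed both fits. Beside the list counts here and below, 0.527% of all genes rose and 0.517% fell. By the population means 5.44% of all genes were higher and 6.21% lower. The primary (azurophil) granule list holds the serine proteases and myeloperoxidase made first. Of its 20 measured members 1 rose and none fell (11 higher and 0 lower by the population means), with a median difference of 0.55 and 0.52 with the block, against 0.01 and 0.02 over all genes. Ms4a3, a membrane protein that marks granulocyte-monocyte progenitors and no granule protease, was the only member that rose. It read 11.85, 12.04, 11.94 and 12.21 in GMP against 8.56, 8.24 and 8.70 in CMP, a difference of 3.51 ± 0.44 (adjusted p = 1.68e-06) and 3.23 ± 0.71 with the block (adjusted p = 0.02). This block call was lost without MPP4 4 (adjusted p = 0.0897). Elane, Prtn3 and Mpo were chosen for mention after their values were seen. Elane, neutrophil elastase, read 11.81, 12.01, 11.94 and 11.27 in GMP against 9.23, 8.93 and 9.05 in CMP, with a difference of 2.69 ± 0.30 that missed the threshold with the block (2.10 ± 0.55, adjusted p = 0.0582). Prtn3, proteinase 3, differed by 1.71 (0.81 with the block, adjusted p = 0.511), and GMP 4 read 9.96 against 11.26 to 11.52 in GMP 1 to 3. Mpo, myeloperoxidase, was already high in CMP (12.61 to 12.74) and read 13.10 to 13.26 in GMP, a difference of 0.50 (adjusted p = 0.297) and -0.49 with the block (adjusted p = 0.765).

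The secondary and tertiary granule list, with proteins made later in neutrophil maturation, had 3 of 18 measured members rise and none fall (12 higher and 0 lower by the population means). Its median difference was 0.92, and 0.28 with the block. S100a8 and Cybb, given above, were joined by Hp, haptoglobin, which binds free haemoglobin. Hp read 11.33, 11.52, 11.67 and 11.75 in GMP against 8.76, 8.88 and 8.98 in CMP. The difference of 2.69 ± 0.18 (adjusted p = 1.86e-11) came to 2.50 ± 0.31 with the block (adjusted p = 5.57e-05). S100a9, the partner of S100a8 and also named after its values were seen, read 10.46, 12.13, 11.78 and 8.69 against 7.22, 8.19 and 8.87. Here GMP 4 lay inside the CMP range, and the block difference of 1.43 was not called (adjusted p = 0.527). Markers of mature neutrophils had list means of 7.70, 8.06, 8.10 and 7.19 in GMP 1 to 4 and 6.71 to 6.98 in CMP. Only S100a8 of 9 measured markers rose, and Ly6g, the antigen of mature neutrophils, read 5.01 to 5.92 in GMP and 4.95 to 5.03 in CMP. The part of such cells in the granule results was not tested.

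Monocyte, macrophage and dendritic cell genes had 3 of 24 measured members rise and none fall, with a median difference of 0.58 (0.42 with the block). Besides Clec4a2 these were Adgre1, an adhesion receptor that marks mouse macrophages, and F13a1, the A subunit of coagulation factor XIII that monocytes express. Adgre1 read 7.59, 7.30, 7.51 and 6.93 in GMP against 5.62, 5.40 and 5.54 in CMP (1.81, and 1.01 with the block, adjusted p = 0.00953). F13a1 read 10.55 to 11.18 against 8.92 to 9.53 (1.48, and 1.80 with the block), and its block call was lost in all 11 leave-outs (adjusted p 0.0504 to 0.101). Of 21 pattern recognition receptors and adaptors 3 rose and none fell, namely Clec5a, Tlr1, which pairs with TLR2 to sense lipopeptides, and Nlrp3, an inflammasome sensor. Tlr1 read 7.19, 7.31, 7.46 and 6.34 in GMP against 5.30 to 5.52 in CMP. Its difference was 1.67 (1.12 with the block, a call lost without MPP4 5 at adjusted p = 0.0504), and GMP 4 alone gave 0.93. Nlrp3 read 6.58 to 7.55 against 5.50 to 5.86, and its block call was lost in 8 of 11 leave-outs (adjusted p 0.0514 to 0.131, without any CMP array, GMP 3, or MPP4 1, 2, 3 or 5). Of 8 measured subunits and partners of the phagocyte NADPH oxidase, only Cybb rose, 4 were higher by the population means, and the list median of 0.80 came to 0.06 with the block.

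Genes of eosinophils, basophils and mast cells had 3 of 19 measured members rise and none fall (median difference 0.37, and 0.26 with the block). Prg2, the eosinophil major basic protein, read 10.02, 9.57, 9.93 and 10.35 in GMP against 6.51, 6.43 and 6.49 in CMP. The groups were far apart (3.49 ± 0.41, adjusted p = 7.57e-07), but the block call (3.08 ± 0.77, adjusted p = 0.0455) was lost in 10 of 11 leave-outs, all but that of MPP4 5 (adjusted p 0.0569 to 0.191). Prg3, its homologue, read 8.71 to 8.96 against 6.47 to 6.89 (2.10, and 2.05 with the block, adjusted p = 0.0106). Gzmb, the protease granzyme B, read 8.21, 8.44, 8.69 and 9.09 against 6.18, 6.19 and 6.32 (2.38, and 2.88 with the block, adjusted p = 1.01e-05). It counts here for its expression in mast cells and basophils and is better known from cytotoxic lymphocytes. Of the 11 measured markers of T and NK cells none rose or fell, with list means of 6.78 to 7.0 in GMP and 6.73 to 6.83 in CMP.

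Of 21 measured transcription factors of the granulocyte-monocyte branch 3 rose and none fell, against 0.527% and 0.517% of all genes. The list had a median difference of 0.11 (0.07 with the block). Cebpe, which drives late granulocyte genes, read 9.29, 9.47, 9.35 and 8.74 in GMP against 7.86, 7.83 and 7.98 in CMP. The difference was 1.32 ± 0.13 (adjusted p = 5.55e-08) and 0.99 ± 0.20 with the block (adjusted p = 0.0103), and GMP 4 alone gave 0.85. Tfec, a relative of MITF expressed in macrophages, read 11.37 to 11.63 against 9.75 to 9.80 (1.71, and 2.46 with the block, a call lost without MPP4 4 at adjusted p = 0.123). Nfil3, a basic leucine zipper factor, read 8.62, 8.79, 8.69 and 9.29 against 8.15, 7.66 and 8.12 (0.87, 1.33 with the block, and 1.31 with GMP 4 alone). Its call between population means was lost without CMP 2 (adjusted p = 0.068) and its block call without MPP4 4 (adjusted p = 0.0988).

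The regulators best known for this branch did not pass both fits. Cebpa, which GMP formation requires, read 9.76, 9.79, 9.94 and 9.92 in GMP against 9.34, 9.29 and 9.43 in CMP. Its groups did not overlap, but the difference of 0.50 ± 0.19 was not called (adjusted p = 0.0884) and came to 0.11 ± 0.31 with the block. Spi1, which encodes PU.1, read 9.55, 9.46, 9.73 and 8.94 against 8.83, 9.13 and 8.58, with GMP 4 inside the CMP range. It was higher by the population means (0.58, adjusted p = 0.0341), and the sign turned with the block (-0.13, adjusted p = 0.905). Gfi1, a repressor needed by neutrophils, read 7.83 to 8.18 against 7.39 to 7.52 (0.54, adjusted p = 0.00114), and 0.06 with the block (adjusted p = 0.936). Irf8, which favours monocytes and dendritic cells, read 9.01 to 9.69 against 8.76 to 9.10 and was called in neither fit (0.38 and -0.77). Egr1, an immediate early factor linked to macrophage fate, was the only member lower by the population means (-1.44, adjusted p = 1.49e-05), and was not called with the block (-1.09, adjusted p = 0.123). Cebpd, a C/EBP factor of inflammation, read 8.81, 9.14, 9.11 and 7.80 against 7.86 to 7.89, with GMP 4 below the CMP range. Its difference of 0.84 (adjusted p = 0.00762) was 0.37 with the block (adjusted p = 0.415) and -0.07 with GMP 4 alone.

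Transcription factors of the megakaryocyte-erythroid branch were lower in GMP. Of 19 measured members 7 fell and none rose, and 15 were lower and none higher by the population means. The median difference was -0.85, and -0.82 with the block. GMP 4 by itself lay below all CMP arrays for 17 of the 19, against 31.5% of all genes. Zfpm1, which encodes the GATA1 partner FOG1, read 7.36, 7.39, 7.51 and 7.72 in GMP against 9.01, 8.77 and 8.63 in CMP. Its difference was -1.31 ± 0.13 (adjusted p = 4.68e-08) and -1.17 ± 0.21 with the block (adjusted p = 0.00278). Gfi1b, a repressor of erythroid and megakaryocyte precursors, read 7.76, 7.84, 7.96 and 8.19 against 9.27, 8.98 and 9.04 (-1.16, and -1.02 with the block, adjusted p = 0.00575). Klf1, the activator of adult globin genes, read 6.54, 6.45, 6.64 and 6.32 against 7.48, 7.30 and 7.40. Every array of GMP lay below the CMP range (-0.91 ± 0.13, and -1.32 ± 0.20 with the block, adjusted p = 0.000836).

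Lmo2 and Ldb1, bridging members of the GATA1 and TAL1 complex, fell by 0.99 and 0.70 (block differences of -0.87 and -1.30). Lmo2 agreed closely within each group (10.13 to 10.19 in GMP, 11.06 to 11.18 in CMP), and its block call was lost without MPP4 4 (adjusted p = 0.0589). Mef2c, a MADS box factor of megakaryocytes and lymphoid progenitors, and Bcl11a, a repressor of fetal globin, fell by 0.98 each (block differences of -1.22 and -1.33). In the fit of GMP 4 alone against CMP without the block, Gfi1b (-0.91, adjusted p = 0.0585), Mef2c (-0.76, adjusted p = 0.0925), Ldb1 (-0.78, adjusted p = 0.0852) and Bcl11a (-0.70, adjusted p = 0.127) missed the threshold. On the deposited values Lmo2 (-0.74, adjusted p = 0.0682) and Ldb1 (-0.45, adjusted p = 0.232) missed it. Gata1, the central erythroid factor, read 7.35, 7.46, 7.41 and 7.75 in GMP against 8.32, 8.31 and 8.98 in CMP. Gata2, its counterpart in stem cells and early progenitors, read 7.82 to 8.28 against 9.03 to 9.15. Both were lower by the population means (-1.04 and -1.0) and missed the threshold with the block (-1.06, adjusted p = 0.0906, and -0.82, adjusted p = 0.103). Tal1 was lower by the population means (-0.41, adjusted p = 0.0156) and differed by 0.05 with the block (adjusted p = 0.924).

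**Figure D3:**
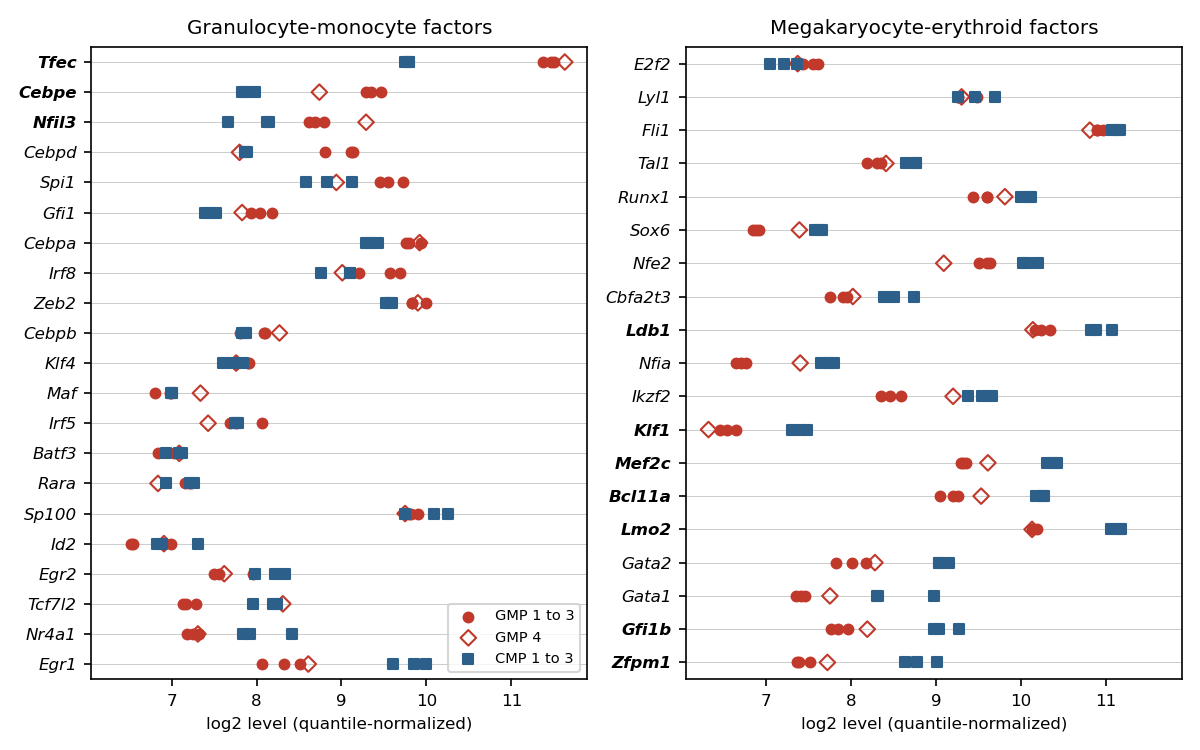
Log2 level (x axis) of the 21 granulocyte-monocyte factors (left) and 19 megakaryocyte-erythroid factors (right), 1 point per array, ordered by the difference between population means. Bold names are the 3 factors that rose and the 7 that fell, and filled circles are GMP 1 to 3, open diamonds GMP 4 and squares CMP 1 to 3. CMP lie to the right of every GMP array for most factors on the right, while the groups overlap for many on the left.

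A minority of the effectors of the same branch fell. Among megakaryocyte and platelet genes 5 of 19 measured members fell and none rose (11 lower and 0 higher by the population means, median -0.55, and -0.35 with the block). They include Slc14a1, which is better known from red cells and kidney, and Pf4. Plek, the platelet protein kinase C substrate pleckstrin, read 9.13, 9.27, 9.12 and 8.84 in GMP against 11, 11.19 and 11.06 in CMP (-1.99, and -1.90 with the block, adjusted p = 0.00012). F2r, the thrombin receptor PAR1, read 7.14 to 7.48 against 8.80 to 9.01 (-1.60, and -1.81 with the block). Itga2b, the platelet integrin CD41 and named after its values were seen, read 7.65 to 8.06 against 9.09 to 9.23 (-1.30, and -1.08 with the block, a call lost without MPP4 4 at adjusted p = 0.101). Vwf, the adhesive glycoprotein of platelets and endothelium, named after its values were seen, was called only with the block (-0.76, adjusted p = 0.0201), with a difference of -0.42 between population means (adjusted p = 0.0887).

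Erythroid effectors had 3 of 25 measured members fall and none rise (median -0.33, and -0.23 with the block). Car2, the carbonic anhydrase of red cells and of other tissues, read 7.76, 7.94, 7.57 and 7.52 in GMP against 10.07, 10.24 and 10.05 in CMP. Both fits gave close values (-2.42 ± 0.13, and -2.41 ± 0.21 with the block, adjusted p = 3.09e-07). Aqp1, the red cell water channel, read 7.21 to 7.56 against 8.74 to 9.38 (-1.77, and -1.94 with the block). Apoe, the lipid carrier apolipoprotein E, read 8.78, 8.89, 8.83 and 9.79 against 10.83, 11.04 and 10.47 (-1.71, and -1.44 with the block), and GMP 4 alone gave -0.99. Car1, a further carbonic anhydrase of red cells named after its values were seen, had the largest difference of the list, reading 6.76 to 7.52 against 11.34 to 11.54. Its difference of -4.25 ± 0.51 missed the threshold with the block (-2.82 ± 0.82, adjusted p = 0.0995). The heme enzymes Alas2 and Fech and the red cell anion exchanger Slc4a1, named after their values were seen, were called in neither fit (differences of 0.16, -0.12 and 0.18).

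Stem cell and multipotency genes had 6 of 24 measured members fall and none rise (13 lower and 0 higher by the population means, median -0.57, and -0.24 with the block). The count with 1 array left out was 3 to 5. Angpt1 was given above. Meis1, a homeobox cofactor of stem cells, read 8.32, 8.31, 7.76 and 8.85 in GMP against 10.76, 10.78 and 10.80 in CMP. Its difference of -2.47 ± 0.20 came to -1.56 ± 0.34 with the block (adjusted p = 0.0195), a call lost without MPP4 4 (adjusted p = 0.0875). Slamf1, the CD150 antigen of stem cells, read 4.83, 5.00, 5.11 and 5.54 against 6.89, 7.39 and 7.46 (-2.13, and -1.76 with the block, adjusted p = 0.0109). Tek, the angiopoietin receptor, read 6.19 to 6.48 against 7.77 to 8.03 (-1.56, and -0.84 with the block), and its block call was lost in 9 of 11 leave-outs, all but GMP 2 and MPP4 4 (adjusted p 0.0537 to 0.116). Hlf and Mecom, both named after their values were seen, encode transcription factors of stem cells and fell by 1.43 and 1.39. The block call of Hlf was lost without MPP4 4 (adjusted p = 0.0508) and that of Mecom in 10 leave-outs, all but MPP4 5 (adjusted p 0.0513 to 0.196).

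Of 22 measured cytokine receptors 1 rose and 1 fell, and 4 were higher and 5 lower by the population means. The median difference was 0.09 (-0.02 with the block). Ifngr1, the ligand-binding chain of the interferon gamma receptor, read 11.06, 11.14, 11.11 and 11.32 in GMP against 10.18, 10.03 and 10.16 in CMP. Its difference of 1.04 ± 0.10 (adjusted p = 4.48e-08) was 1.09 ± 0.17 with the block (adjusted p = 0.000848). Flt3, a receptor of lymphoid-primed and dendritic progenitors, read 7.62, 7.65, 7.59 and 7.86 against 9.84, 9.54 and 9.72 (-2.02 ± 0.22, and -2.79 ± 0.30 with the block, adjusted p = 1e-05). Csf1r, the receptor of macrophage growth factor, and Csf2ra, the GM-CSF receptor alpha chain, were higher by the population means (0.96 and 0.81) with no overlap of arrays, and were not called with the block (0.40, adjusted p = 0.409, and 0.14, adjusted p = 0.819). Csf3r, the G-CSF receptor, read 8.45 to 9.13 in GMP against 8.60 to 8.68 in CMP and was called in neither fit (0.28, adjusted p = 0.381). Epor, the erythropoietin receptor, read 7.18 to 7.56 against 7.51 to 7.91, a difference of -0.37 (adjusted p = 0.0452) and -0.06 with the block. Among 23 lymphoid priming genes Dntt fell and none rose, and 6 were lower by the population means.

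Among all genes 1.04% passed both fits and 11.7% differed by the population means. A count of 0 in the short lists of general cell programmes below is therefore no finding. Of 24 genes of protein folding and secretion in the endoplasmic reticulum 12 were higher by the population means and 1 passed both fits, with a median of 0.47 (0.44 with the block). That gene was Hsp90b1, the chaperone GRP94, which read 12.73 to 12.85 in GMP against 12.26 to 12.30 in CMP (0.50, and 0.86 with the block). Its call was lost under median centring (0.41, adjusted p = 0.214), on the deposited values (0.66, adjusted p = 0.117), with GMP 4 alone (0.57, adjusted p = 0.131) and, with the block, in 6 of 11 leave-outs (any CMP array or MPP4 2, 3 or 4, adjusted p 0.0537 to 0.202). None of the 22 mitosis genes, 23 DNA replication genes, 16 cyclins and their partners of the G1 phase or 21 ribosome biogenesis genes passed both fits, and the population means called 2, 2, 0 and 1 of them, all higher. GMP 4 by itself lay above all CMP arrays for 18 mitosis genes and below for 1, against 42.0% and 31.5% of all genes. It lay below all CMP arrays for 13 of the G1 genes and above for 0. All GMP arrays lay above CMP for 9 mitosis genes and below for 8 G1 genes, against 16.5% and 14.7% of all genes. Mitosis list means were 9.93 in GMP 4, 9.66 to 9.77 in GMP 1 to 3 and 9.58 to 9.62 in CMP. For G1 genes they were 8.77, 8.93 to 8.95 and 9.05 to 9.14. Median differences were 0.15 for mitosis (0.18 with the block) and -0.23 for G1 genes (-0.06 with the block). Among 16 type I interferon response genes Rtp4, an interferon-induced receptor transporter, fell by 1.56 (-1.47 with the block), a call lost without MPP4 4 (adjusted p = 0.0768). None of 7 MHC class II genes and none of 21 integrins, selectin ligands and chemokine receptors passed both fits. Markers of B and plasma cells and of marrow stroma had no member called in both fits and 1 each higher by the population means.

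**Figure D4:**
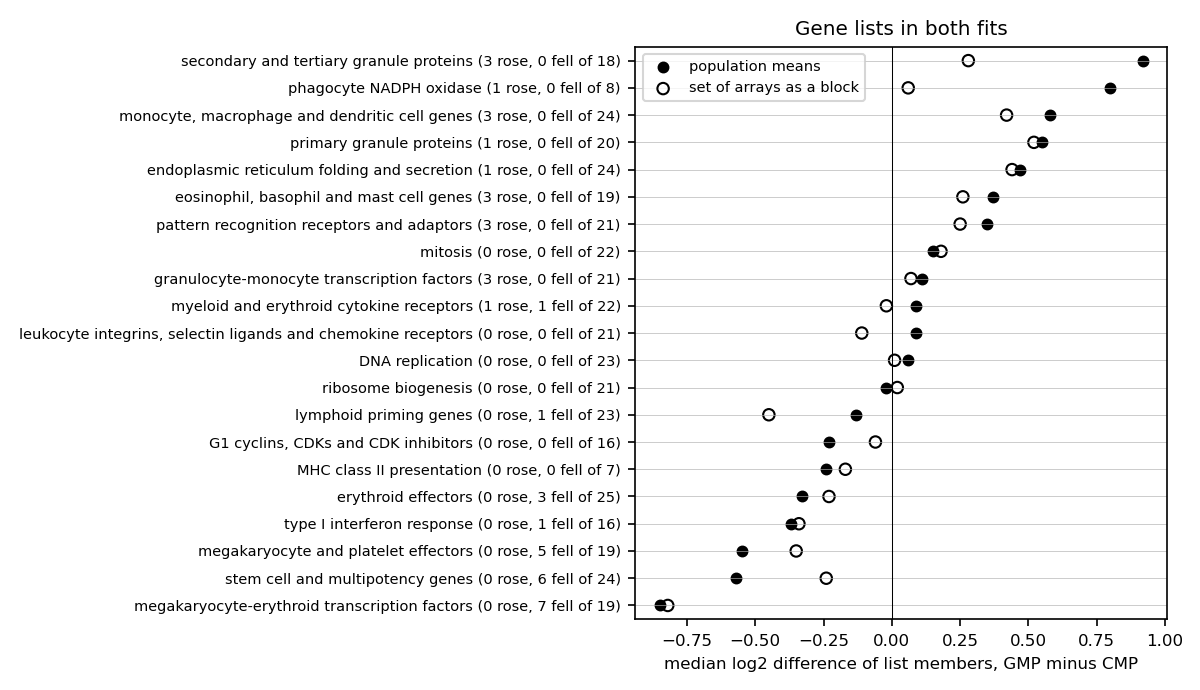
Median log2 difference GMP minus CMP over the measured members of 21 gene lists. Filled circles give the difference between population means and open circles that with the set of arrays as a block, and the counts beside each name are members called in both fits. Medians run from 0.92 for secondary and tertiary granule proteins to -0.85 for megakaryocyte-erythroid transcription factors.

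Across the 9 populations, the genes that rose were most often highest in granulocytes. Gr had the highest mean for 59 of the 105 (56.2%), GMP for 26 (24.8%) and PreGr, the pre-granulocytes, for 15, against 23.5%, 10.0% and 8.9% of all genes. The genes were chosen on GMP and CMP levels, GMP 1 to 3 share a set with PreGr and Gr, and the order across sets was not tested. Cybb rose from 6.33 ± 0.16 (SD, n = 3) in CMP to 10.05 ± 0.17 (n = 4) in GMP, and the level was 12.80 ± 0.12 in PreGr and 13.02 ± 0.13 in Gr (n = 3 each). Hp had the same order, at 8.87 in CMP, 11.57 in GMP, 12.51 in PreGr and 12.80 in Gr. Gzmb and Ms4a3 had their highest mean in GMP. Gzmb read 8.61 ± 0.38 there against 6.88 ± 0.52 in PreGr and at most 6.5 in the other populations. Ms4a3 read 12.01 ± 0.16 in GMP, 11.09 ± 0.44 in PreGr and 9.10 ± 1.28 in Gr, with arrays that lay far apart in Gr.

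The genes that fell had their highest mean in several places: LT-HSC, the long-term stem cells, for 28 of 103, ST-HSC, the short-term stem cells, for 22, and CMP for 21. For all genes these populations were highest in 16.4%, 6.0% and 11.3%, against 27.2%, 21.4% and 20.4% here. Gr was highest for 11 (10.7%, against 23.5% of all genes). These genes were chosen for a lower level in GMP than in CMP, so GMP could not be highest, which shifts the other shares. Pf4 was high in MPP2, multipotent progenitors sorted as CD150-positive, and in CMP (11.27 ± 0.06 and 10.97 ± 0.08, n = 3 each), intermediate in LT-HSC (9.40 ± 0.44) and ST-HSC (9.66 ± 0.46), and 6.87 ± 0.61 in MPP4 (n = 5), close to the 6.91 ± 0.74 of GMP. Slc14a1 was highest in CMP (10.59 ± 0.15) and below 7 in GMP, PreGr and Gr. Flt3 peaked in MPP4 (11.27 ± 0.54), and Meis1 was 11.17 to 11.72 in all stem and multipotent groups, 10.78 in CMP and 8.31 in GMP.

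**Figure D5:**
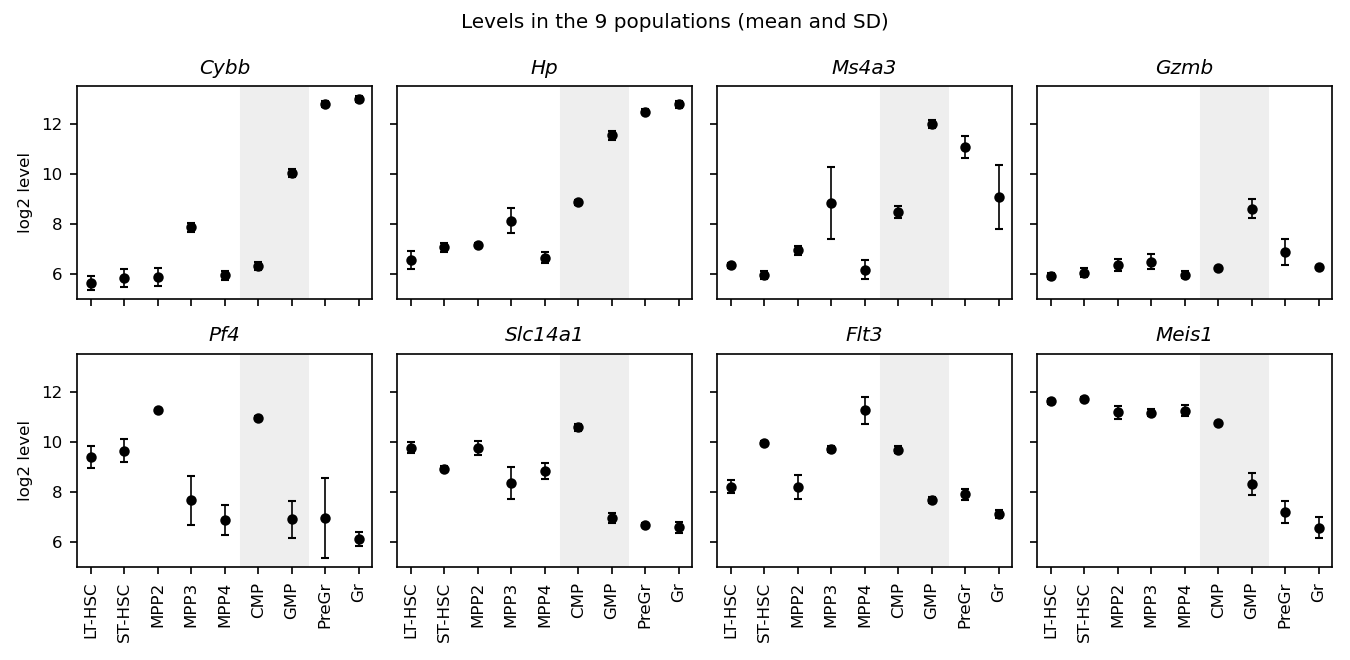
Mean log2 level (y axis) with SD over the arrays of each of 9 populations for 4 genes that rose (top) and 4 that fell (bottom); n is 3 for each population except LT-HSC and GMP (4 each) and MPP4 (5). Grey marks CMP and GMP. Cybb and Hp are higher again in PreGr and Gr, while Ms4a3 and Gzmb are highest in GMP, and the 4 lower panels show the level in GMP below that in CMP.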

How the data were processed

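Expression was measured on an Affymetrix gene array, 1 array per sample. The authors deposited RMA log2 values (RMA is named in the submitters' processing notes, with no version), from 1.39 to 14.29. Deposited array medians were 6.90 to 6.94 for CMP and 6.86 to 7.29 for GMP, and the number of arrays limits precision. Of 35557 probes 21789 had 1 gene in the platform annotation, 1621 several and 12147 none; 21698 matched RefSeq names, and the brightest probe stood for each of 19938 genes, 999 of which had over 1. All 31 arrays were quantile-normalized. limma 3.58.1 (R 4.3.3) fitted 1 mean per population (22 residual degrees of freedom), and again with the set of arrays as a block (18), with Benjamini-Hochberg adjusted p over all genes and a threshold of 0.05. Sets are chains of arrays linked by at least 2 identical deposited values, and arrays of different sets shared at most 1; no label names these sets. Alternatives were median centring, deposited values, a level filter, 7 arrays, probe means, a trended prior, array weights, the replicate block and leaving out arrays. Array weights estimated with the set were added after seeing the data.

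Genes were named by a rule: the 12 largest rises and 12 largest falls called in both fits without overlap, passing over predicted genes, up to 4 members of each list per direction, and any member of the 2 factor lists, the cytokine receptors and the gate antigens. A further 8 genes and a few list members were named after their values were seen. The members and all 26 lists were chosen with earlier results of these data known. The fits were also run on simulated data, and no result given here rests on that run. Figures were drawn with matplotlib.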

Additional observations from a re-analysis of the deposited data

Results flagged for a closer look

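Of 112 named genes, 9 had 1 GMP array whose gap to the nearest other was wider, as a share of the range of the 4 arrays, than Dixon's critical value, a limit that chance passes in about 1 of 20 groups. GMP 4 was the array that stood apart for 8 of them. It was low for Ly6a2 (8.81, others 10.58 to 10.92) and Prtn3 (9.96, others 11.26 to 11.52). It was high for Apoe (9.79, others 8.78 to 8.89), Hlf (8.32, others 7.88 to 7.95) and Ddah2 (7.36, others 6.85 to 6.93). The transcription factors Tcf7l2 (8.31, others 7.13 to 7.29), Nfia (7.40, others 6.64 to 6.76) and Sox6 (7.39, others 6.84 to 6.92) were also high in GMP 4. For Lmo2, GMP 3 read 10.19 against 10.13 to 10.14, a gap that is small on the log2 scale. GMP 4 lies in another set of arrays than GMP 1 to 3, and the part of the set in these values was not tested.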

How the results depend on the processing

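The count of 2323 genes called between population means came to 1533 on the deposited values, 1353 among genes above the median level, 3604 with the 7 arrays only, 7295 with array weights, 4373 with array weights estimated with the set block, 414 with GMP 4 alone, and 1392 to 2546 with 1 array left out. The 264 calls of the set block came to 3 with array weights, 460 with weights estimated with the set block, 534 without MPP4 5, and 179 to 534 over the leave-outs that have a block estimate. The 208 genes called in both fits came to 3, 329 and, with GMP 4 alone, 138, and to 150 to 252 over leave-outs. The 42 list members called in both came to 2 with array weights and 31 to 45 over leave-outs. Median centring gave 978 higher and 1308 lower genes by population means, 96 and 203 with the set block, and 81 and 137 in both. Of 1999 recomputed values of named genes 1855 stayed on their side of the threshold, 104 lost the call and 37 gained it. Of the 1855, 41 turned sign between values called in neither setting (Mpo and Irf8 with the set block among them), and 3 further values turned sign from a called one: Cebpd with GMP 4 alone (-0.07), and Spi1 (-0.13) and Tal1 (0.05) with the set block. Correlations of the deviations of same-numbered GMP and CMP arrays were small (-0.116, -0.002 and 0.044). The GMP mean there includes GMP 4 of another set. With the mean of GMP 1 to 3 only, they were -0.087, 0.025 and -0.046, against -0.075 to 0.125 for pairs of different numbers. Neither version can decide whether arrays are paired, since both run over all genes. No label says what a number shares, and sex-linked transcripts followed the number. With the replicate block 2621 genes were called, 2147 of them shared. The count in both fits could not be had for the 7 arrays only, the replicate block or without GMP 4, where the set block has no estimate. Beyond the alternatives' construction, the cause was not tested. Signal over background could not be judged, since the table has no detection calls.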

Other observations

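Sex-linked transcripts differed between replicate numbers and were alike in GMP and CMP arrays of the same number. Xist, the RNA of the inactive X chromosome, read 5.70, 10.36, 9.0 and 11.23 in GMP 1 to 4 and 6.03, 11.14 and 9.56 in CMP 1 to 3. Eif2s3y, a Y-linked translation factor, read 9.21, 7.87, 8.89 and 4.51 in GMP and 8.80, 7.71 and 9.06 in CMP. Arrays 2 and 3 of both populations thus had high levels of both transcripts, array 1 was low for Xist, and GMP 4 was high for Xist and low for Eif2s3y. The block estimate rests on GMP 4, which thus read below all CMP arrays for Eif2s3y. The linking MPP4 arrays were mixed, with Eif2s3y at 4.22 in MPP4 4, 9.04 in MPP4 5 and 7.67 to 9.41 in MPP4 1 to 3. Xist had the same order in arrays 1 to 3 of LT-HSC (5.36, 11.39 and 10.24), MPP4, PreGr and Gr. In ST-HSC, MPP2 and MPP3 the order was another. The fits without the replicate block treat arrays of the same number as independent. The labels give no sex, and its part in the differences, those of X-linked genes such as Cybb included, was not tested.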
